A study of Mus musculus with 36 samples.

Results

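Blood vessels of the brain are lined by endothelial cells and wrapped by mural cells (pericytes and smooth muscle cells), and 8 genes that mark these cells were followed in 3 regions of the mouse brain after modafinil, which keeps animals awake and blocks dopamine reuptake. They were the glucose transporter gene Slc2a1, the efflux pump gene Abcb1a, the tight junction gene Cldn5, the adhesion genes Icam2 and Pecam1, the receptor genes Flt1 and Tek, and the mural cell receptor gene Pdgfrb. Every probe set that the array's annotation gave to exactly 1 of these symbols was taken, which made 15 of 45101 probe sets and 8 of 18193 genes. Slc2a1 had 3 probe sets, Flt1 had 4, Abcb1a and Pdgfrb had 2 each, and the others had 1. The brightest probe set on average stands for each gene below, and the others are given where they differed.

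The 36 Affymetrix mouse arrays came from male C57B1/6J mice (age not given) that all went through conditioned place preference, in which injections are paired with one side of a box. Treated mice received modafinil at 65 mg/kg on the drug days between days 3 and 10 and saline on the alternate days, while vehicle mice received saline throughout. Brains were taken on day 11, 24 h after the last dose, and punches 1 mm wide were cut from slices 100 µm thick. The ventral tegmental area (VTA, the origin of the midbrain reward pathway) and the nucleus accumbens (NAC, its striatal target) gave 5 vehicle and 5 modafinil arrays each, and the prefrontal cortex (PFC) gave 8 and 8. For VTA and NAC, RNA of 2 tissue pieces was pooled where its integrity allowed, which the labels do not say of PFC. The labels do not state outright that each array is a separate mouse, so p-values measure the spread between arrays. Nor do they state whether arrays of different regions came from the same mouse. The p-values across or between regions depend on this, since those fits took the arrays as separate.

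Values are log2 signals, so a difference of 1 is a doubling, and all values below are on that scale unless a fold is named. Array medians lay between 6.76 and 6.81 in VTA, between 6.79 and 6.90 in NAC and between 7.20 and 7.27 in PFC. For this reason and the RNA handling above, levels in PFC were not tested against the other regions. Markers of the dissected tissues lay where the labels put them: the mean over dopamine neuron markers was 9.15 ± 0.58 (SD, n = 5) in vehicle VTA against 6.17 ± 0.076 in vehicle NAC, and that over striatal markers was 11.13 ± 0.40 in NAC against 8.05 ± 0.13 in VTA. In these pieces of whole tissue, fewer vessel cells and less RNA of a gene per vessel cell cannot be told apart. Precision is limited by the number of arrays.

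The barrier between blood and brain rests on endothelial cells that are sealed by tight junctions, carry glucose inward and pump many drugs outward. SLC2A1 brings in glucose and is also made by astrocytes, CLDN5 seals the junctions, and ABCB1A exports foreign compounds. TEK is the receptor of the angiopoietins, FLT1 is a receptor and decoy of vascular endothelial growth factor, and PDGFRB lets pericytes answer the growth factor that endothelial cells release. ICAM2 and PECAM1 are surface molecules used in contacts between endothelial cells and with leukocytes.

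The stretch just before the annotated gene is shown for the 3 barrier genes, since Slc2a1 and Cldn5 had values on opposite sides of vehicle after modafinil. In no single region did either difference pass the adjusted test given below. RefSeq promoter stretches of GRCm38.p6 were read for 5 of the 8 genes, and not for Icam2, Pecam1 or Pdgfrb. In 3 of the 5 the 250 bases lay wholly before the gene. Letters run 5′ to 3′ on the gene's strand, which is the plus strand in all 3, and the last base is the one before the start. Slc2a1 is at chr4:119108495-119108744, Cldn5 at chr16:18776597-18776846 and Abcb1a at chr5:8566841-8567090. Capitals mark the GC box GGGCGG, read as CCGCCC on the other strand.
Slc2a1: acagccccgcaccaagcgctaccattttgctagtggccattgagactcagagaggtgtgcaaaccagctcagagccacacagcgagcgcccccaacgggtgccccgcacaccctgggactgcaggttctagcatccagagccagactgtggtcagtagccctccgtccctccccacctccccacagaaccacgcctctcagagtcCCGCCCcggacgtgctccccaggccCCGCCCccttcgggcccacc
Cldn5: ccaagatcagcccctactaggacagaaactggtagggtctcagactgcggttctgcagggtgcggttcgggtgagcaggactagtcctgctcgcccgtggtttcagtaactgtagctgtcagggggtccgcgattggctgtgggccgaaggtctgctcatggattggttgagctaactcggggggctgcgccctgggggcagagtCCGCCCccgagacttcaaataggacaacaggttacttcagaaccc
Abcb1a: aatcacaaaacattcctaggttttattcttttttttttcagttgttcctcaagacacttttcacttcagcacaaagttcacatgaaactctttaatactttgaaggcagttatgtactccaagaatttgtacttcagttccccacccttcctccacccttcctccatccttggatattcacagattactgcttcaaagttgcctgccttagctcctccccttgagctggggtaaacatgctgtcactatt

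The Slc2a1 stretch held 2 GC boxes, the Cldn5 stretch held 1 and the Abcb1a stretch held 0. This motif was present in 32.7% of the 32851 promoter stretches of the same length that were read. In both Slc2a1 and Cldn5 a box began 45 bases before the start. GC made up 66.4% of the Slc2a1 stretch, 59.6% of that of Cldn5 and 40.4% of that of Abcb1a. The form GGAAGT of the ETS motif (in 19.7% of the stretches read) was not among the letters of these 3 windows. Neither were the form TTCNNNGAA that STAT proteins bind (7.02%) and the TATA box TATAAA (12.4%). Each was searched on both strands, and shorter forms of the ETS motif were not searched.

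**Figure D1:**
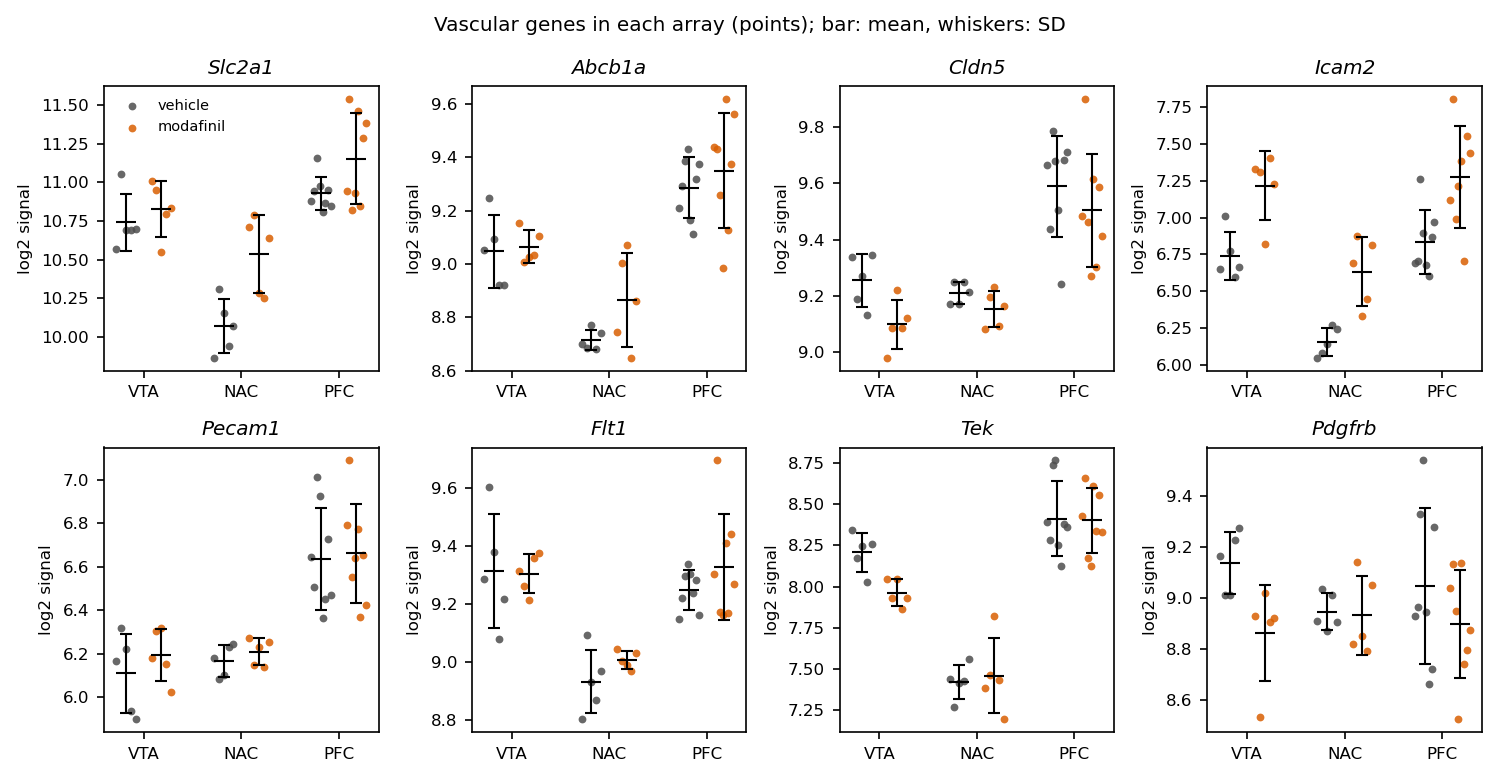
Log2 signal (y axis) of the 8 vascular genes in each of the 36 arrays by region (x axis), vehicle in grey and modafinil in orange, with the group mean as a bar and the SD as whiskers (n = 5 and 5 in VTA and NAC, 8 and 8 in PFC). Icam2 sits higher in the modafinil arrays of all 3 regions, with no overlap in NAC, while the means of Cldn5 and Tek are lower in VTA, with groups that overlap there as in NAC and PFC.

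Icam2, the adhesion gene, was the member that rose with modafinil when the 3 regions were fitted jointly. In VTA its vehicle values were 6.65, 7.01, 6.77, 6.60 and 6.66 and its modafinil values were 7.33, 7.31, 6.82, 7.41 and 7.23. In NAC the vehicle values were 6.05, 6.08, 6.14, 6.27 and 6.24, and the modafinil values were 6.69, 6.88, 6.33, 6.45 and 6.81. In PFC vehicle arrays spanned 6.60 to 7.26 with a median of 6.79, and modafinil arrays spanned 6.70 to 7.81 with a median of 7.30. All modafinil arrays lay above all vehicle arrays in NAC, whereas 1 modafinil array in VTA lay among the vehicle arrays and the groups overlapped in PFC. The change of Icam2 was 0.48 (SE 0.11; 1.39-fold) in VTA, 0.48 (SE 0.11; 1.39-fold) in NAC and 0.44 (SE 0.13; 1.36-fold) in PFC. Modafinil arrays above the vehicle mean numbered 5 of 5, 5 of 5 and 7 of 8.

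Within single regions Icam2 did not pass limma's test adjusted over 27022 probe sets by the Benjamini and Hochberg method (adjusted p = 0.0685 in VTA, 1.00 in NAC and 0.267 in PFC). The unadjusted exact permutation test, two-sided, gave p = 0.0159 in VTA, 0.00794 in NAC, which is the smallest that 5 against 5 arrays allow, and 0.0101 in PFC. Over all 36 arrays with region as a factor, Icam2 rose by 0.46 (SE 0.074; 1.38-fold; limma adjusted p = 3.24e-04). Leaving out any 1 array kept this adjusted p between 2.01e-05 and 8.44e-04. Its probe set is dim: it was not among those tested once the level filter was raised to the 60th percentile. In the fit over all 36 arrays it was also not tested with 1 probe set per gene.

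Slc2a1, the glucose transporter, had higher values in NAC and PFC. The NAC vehicle arrays read 9.86, 10.31, 10.15, 9.94 and 10.07, and the NAC modafinil arrays read 10.71, 10.79, 10.29, 10.25 and 10.64. Of the modafinil arrays 3 lay above every vehicle array. The NAC difference was 0.47 (SE 0.12; 1.38-fold; limma adjusted p = 1.00; exact permutation p = 0.0238), and the other probe sets of the gene gave 0.41 and 0.23, the first of them with no overlap between the groups. In PFC the range was 10.80 to 11.15 (median 10.91) with vehicle and 10.82 to 11.54 (median 11.12) with modafinil, so the groups overlapped at the low end. The PFC difference was 0.22 (SE 0.10; limma adjusted p = 0.407).

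In VTA, Slc2a1 read 10.57, 11.05, 10.69, 10.69 and 10.70 with vehicle and 11.01, 10.95, 10.55, 10.79 and 10.83 with modafinil. The groups overlapped throughout, with a difference of 0.086 (SE 0.10; limma adjusted p = 0.649). Over the 3 regions Slc2a1 differed by 0.25 (SE 0.070; 1.19-fold) and missed the threshold (limma adjusted p = 0.0678). Its adjusted p was 0.0376 without vehicle VTA array 2, 0.0348 without modafinil VTA array 3, 0.0351 without modafinil PFC array 3 and 0.0422 without modafinil PFC array 6, and 0.0189 with arrays weighted by their quality. It also passed with 1 probe set per gene.

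Cldn5, the junction gene, went the other way in VTA, with vehicle values of 9.34, 9.19, 9.27, 9.13 and 9.35 and modafinil values of 8.98, 9.09, 9.22, 9.09 and 9.12. All 5 modafinil arrays lay under the vehicle mean, but the groups overlapped. The difference was −0.16 (SE 0.066; limma adjusted p = 0.205; exact permutation p = 0.0317) in VTA, −0.057 (SE 0.061) in NAC and −0.085 (SE 0.088) in PFC.

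Abcb1a, the efflux pump, gave different readings from its 2 probe sets. On the brighter one it differed by 0.018 (SE 0.071) in VTA, 0.15 (SE 0.085) in NAC and 0.063 (SE 0.081) in PFC. On the dimmer one the NAC difference was 0.41 (SE 0.14; limma adjusted p = 1.00), with 4 of 5 modafinil arrays above the vehicle mean on either.

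Among the receptors, Tek read 8.34, 8.17, 8.24, 8.03 and 8.26 in vehicle VTA and 8.05, 7.93, 8.05, 7.86 and 7.93 in modafinil VTA. All 5 modafinil arrays lay under the vehicle mean, and the lowest vehicle array lay beside the 2 highest modafinil arrays. This difference was −0.25 (SE 0.070; limma adjusted p = 0.0968; exact permutation p = 0.0238), whereas it was 0.038 (SE 0.11) in NAC and −0.0096 (SE 0.097) in PFC.

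Pdgfrb, the pericyte receptor, read 9.17, 9.01, 9.01, 9.23 and 9.27 in vehicle VTA and 8.93, 8.54, 9.02, 8.90 and 8.92 in modafinil VTA. The difference of −0.27 (SE 0.093; limma adjusted p = 0.142) on this probe set stood against −0.0054 (SE 0.064) on the other one. In PFC it was −0.15 (SE 0.12) with a wide spread, from 8.66 to 9.54 in vehicle arrays. There the mean over markers of fibroblasts and meninges also varied widely, from 6.68 to 8.39 in vehicle and from 6.65 to 8.17 in modafinil arrays, and its part in the Pdgfrb values was not tested.

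Flt1 differed by −0.0092 (SE 0.088) in VTA, 0.075 (SE 0.068) in NAC and 0.079 (SE 0.068) in PFC, and its other 3 probe sets gave between −0.046 and 0.16 over the regions. Pecam1 was dim, with group means from 6.11 to 6.66, and passed the filter on low values in the PFC fit alone, where it differed by 0.024 (SE 0.11).

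**Figure D2:**
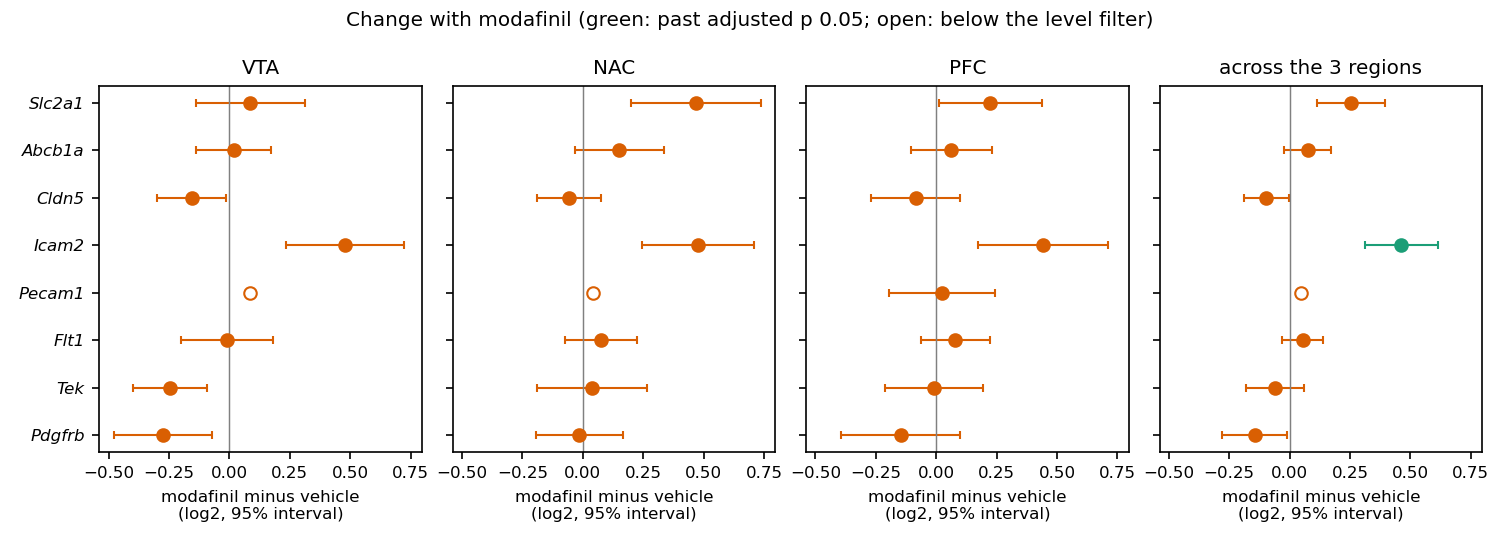
Difference between modafinil and vehicle on the log2 scale (x axis) with its 95% interval from limma for each gene, in VTA, NAC, PFC and across the 3 regions. Icam2 across the regions, in green, is the value past the adjusted threshold, and open circles mark Pecam1 where it lay below the level filter.

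Counted over the members tested, 0 of 7 passed limma's adjusted threshold in VTA, where 0.259% of all probe sets did, and 4 were under 0.05 before adjustment (Icam2 higher, and Cldn5, Tek and Pdgfrb lower), against 21.1% of all. In NAC 0 of 7 passed, as did 0% of all, and Icam2 and Slc2a1, 2 members, had an unadjusted p under 0.05 against 3.23% of all. In PFC 0 of 8 passed against 0.0518% of all, and the same count of 2, again Icam2 and Slc2a1, had an unadjusted p under 0.05 against 11.8%. Across the regions 1 of 7 passed against 0.84% of all, and 4 had an unadjusted p under 0.05 against 16.6%. Groups did not overlap for 0 members in VTA (5.74% of all), 1 in NAC (0.477%) and 0 in PFC (0.104%). The median change of the members tested was −0.0092 in VTA, 0.075 in NAC and 0.043 in PFC, beside −0.047, −0.015 and −0.028 over all probe sets.

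Whether the change with modafinil differed between regions was tested as an interaction over 36 arrays. For Icam2 the difference was −0.0028 between NAC and VTA (95% interval −0.42 to 0.41), −0.036 between PFC and VTA (−0.41 to 0.34) and −0.033 between PFC and NAC (−0.41 to 0.34), so differences of this width remain possible. The change of Slc2a1 was 0.38 larger in NAC than in VTA (95% interval 0.016 to 0.75; limma adjusted p = 0.42), and that of Tek was 0.28 larger (−0.031 to 0.60; adjusted p = 0.493). None of the 7 members tested passed between NAC and VTA (0.274% of all probe sets did), between PFC and VTA (0.903%) or between PFC and NAC (0%). With an unadjusted p under 0.05 there were 1, 0 and 0 members, against 11.2%, 12.1% and 4.91% of all probe sets.

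Genes of the same vessels were read from lists that shared no gene with the 8. Of 21 tested genes for endothelial identity and adhesion, Ramp2, part of the adrenomedullin receptor, rose across the regions (0.24, SE 0.051; limma adjusted p = 0.0105), and 14 of the 21 had higher values, against 34.7% of all probe sets. Its changes were 0.34 (SE 0.11) in NAC and 0.27 (SE 0.074) in PFC. These were larger than its change in VTA by 0.24 (SE 0.13) and 0.18 (SE 0.12), neither past limma's adjusted threshold. Podxl, which codes for a sialomucin of the vessel surface, had 0.30 (adjusted p = 0.064) and the adhesion receptor gene Adgrf5 0.24 (adjusted p = 0.0782) across the regions. In VTA alone Adgrf5 was at 9.61 ± 0.30 (SD, n = 5) with modafinil and 9.09 ± 0.19 with vehicle, with no overlap and limma adjusted p = 0.0804. The median change of this list across the regions was 0.036 beside −0.027 over all probe sets.

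Of 22 tested genes for barrier junctions and transporters, 0 passed across the regions by limma, and the median was 0.048. An unadjusted p under 0.05 was reached by 4, all higher, against 16.6% of all probe sets. The amino acid transporter gene Slc38a5 had 0.29 (SE 0.077; adjusted p = 0.0606) and the efflux pump gene Abcg2 had 0.16 (SE 0.046; adjusted p = 0.0832). Abcg2 in NAC was at 9.07 ± 0.097 with modafinil and 8.72 ± 0.16 with vehicle (n = 5 each), and the junction gene Ocln there was at 7.23 ± 0.092 and 6.97 ± 0.19. In VTA the lactate transporter gene Slc16a1 (−0.24, SE 0.084) and the transferrin receptor gene Tfrc (−0.22, SE 0.082) had lower values and Lef1, a Wnt pathway factor, a higher one (0.61, SE 0.21), with limma adjusted p from 0.148 to 0.164.

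Of 21 tested vascular growth factors and receptors, 0 passed across the regions by limma. An unadjusted p under 0.05 was reached by 1 with a higher value and 3 with a lower one, against 16.6% of all probe sets. Kdr, the main signalling receptor of vascular endothelial growth factor, had −0.15 (SE 0.048; adjusted p = 0.124). In VTA 4 of the 21 had higher values, against 36.2% of all probe sets, with a median of −0.13 beside −0.047 over all. There Nrp1, a co-receptor, had −0.24 (SE 0.077; adjusted p = 0.131).

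Of 18 tested mural cell genes 0 passed across the regions by limma. Only 1, Mylk, had an unadjusted p under 0.05 (0.21, SE 0.093), against 16.6% of all probe sets. Mcam, an adhesion gene of pericytes and endothelium, had lower values with modafinil in VTA (7.83 ± 0.12 against 8.16 ± 0.17; n = 5 each) and higher values in PFC (7.74 ± 0.16 against 7.56 ± 0.14; n = 8 each). Its change differed between PFC and VTA by 0.50 (SE 0.11; limma adjusted p = 0.0187), with an adjusted p of 0.0558 without vehicle VTA array 2 and 0.0584 without modafinil VTA array 1.

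Among 6 tested genes of endothelial activation, the interleukin 1 receptor gene Il1r1 rose across the regions (0.24, SE 0.056; limma adjusted p = 0.0271), with values in VTA of 7.38 ± 0.19 against 6.99 ± 0.14. The difference of its change from that in VTA was −0.22 (SE 0.15) in NAC and −0.20 (SE 0.13) in PFC. Neither passed limma's adjusted threshold. Plvap, a gene of leaky vessels, was lower in every modafinil VTA array than in every vehicle VTA array (7.95 ± 0.13 against 8.36 ± 0.11; limma adjusted p = 0.0519).

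Values of other marker lists also differed between vehicle and modafinil arrays. The mean over the dopamine neuron markers spanned 8.50 to 10.04 in vehicle VTA and 7.48 to 8.99 in modafinil VTA. All 12 that were tested had lower values, 11 of them with an unadjusted p under 0.05 by limma and 0 after adjustment. Markers of thalamic and midbrain excitatory neurons spanned 8.35 to 9.41 and 9.37 to 9.91 in the same groups, all 5 tested higher, 3 of them with an unadjusted p under 0.05. Oligodendrocyte markers spanned 10.78 to 11.19 in vehicle and 10.79 to 10.91 in modafinil VTA, with all 14 tested lower, a median change of −0.19 and 5 with an unadjusted p under 0.05 by limma. In PFC they spanned 8.96 to 9.66 with vehicle and 9.21 to 10.19 with modafinil, with all 14 higher, a median change of 0.19 and 2 with an unadjusted p under 0.05. Striatal markers in PFC spanned 8.62 to 8.84 and 8.57 to 10.49, with all 10 tested higher and 1 with an unadjusted p under 0.05. After adjustment 0 of these passed. Over all probe sets 21.1% in VTA and 11.8% in PFC had an unadjusted p under 0.05 by limma, and the PFC counts above were near that share. Higher values were found for 36.2% of all probe sets in VTA and 37.5% in PFC. The part of these neuron and oligodendrocyte markers in the differences of Mcam in both regions and in the VTA differences of Cldn5, Tek, Pdgfrb, Plvap and Lef1 was not tested. Microglia markers spanned 8.14 to 8.34 in vehicle VTA and 8.26 to 8.46 in modafinil VTA. By limma 0 of 13 passed in VTA, NAC, PFC or across the regions. In that last fit 3 had an unadjusted p under 0.05, all higher, against 16.6% of all probe sets. Across the regions the astrocyte gene Sox9 fell by 0.25 (SE 0.050; limma adjusted p = 0.00486), the 1 called among 14 tested astrocyte genes.

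All 17 tested interferon-induced genes rose across the regions by limma, with a median change of 0.90, and the arrays differed widely in them. The list mean spanned 6.97 to 7.22 in vehicle and 6.97 to 8.45 in modafinil VTA, 6.84 to 6.97 and 6.89 to 8.33 in NAC, and 7.33 to 7.56 and 7.41 to 8.86 in PFC. The modafinil array with the lowest list mean in VTA, array 3 at 6.97, also had the lowest Icam2 (6.82) and the lowest Slc2a1 (10.55) of its group. In NAC that array was array 4, at 6.89 with Icam2 at 6.45, the second lowest, and Slc2a1 at 10.25, the lowest. In PFC it was array 6, at 7.41 with Icam2 at 6.70, the lowest, and Slc2a1 at 10.85, the second lowest. At this low end vehicle groups, whose list means spanned less, did not show the match. The vehicle array with the lowest list mean ranked 3, 4 and 3 from the bottom for Icam2 in VTA, NAC and PFC. For Slc2a1 it ranked 4, 3 and 4. The high end was read in vehicle VTA and NAC alone. Vehicle VTA array 2 had the highest list mean (7.22), Icam2 (7.01) and Slc2a1 (11.05) of its group. Vehicle NAC array 3, with the highest list mean there (6.97), was highest for neither gene. The part of the interferon-induced genes in the Icam2 and Slc2a1 values was not tested.

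**Figure D3:**
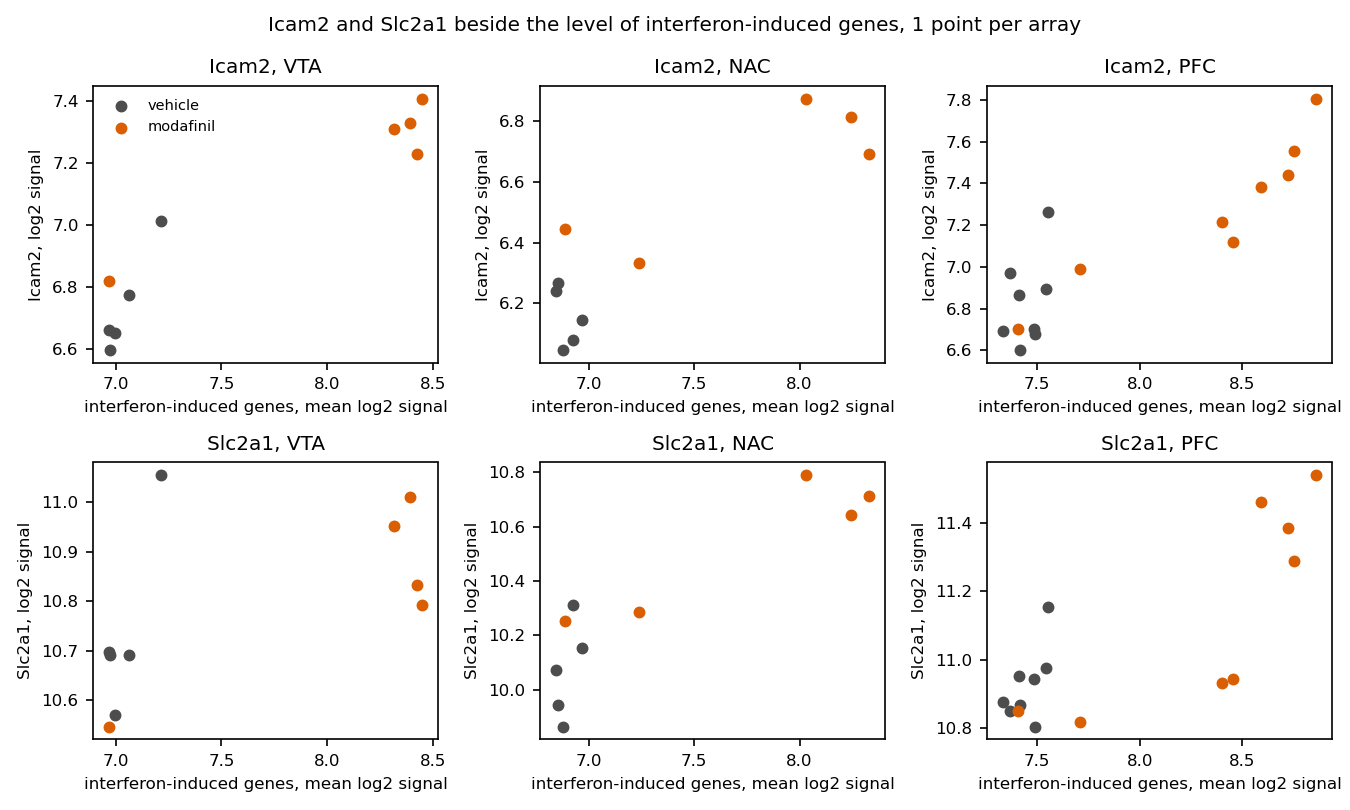
Log2 signal of Icam2 (top) and Slc2a1 (bottom) in each array (y axis) against the mean log2 signal of the interferon-induced genes in that array (x axis), by region, vehicle in grey and modafinil in orange. The modafinil arrays with low interferon-induced genes, at 6.97 in VTA, 6.89 in NAC and 7.41 in PFC, lie among or near the vehicle arrays for both genes.

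In vehicle mice most of the 8 genes were lower in NAC than in VTA, a comparison in which 59% of all probe sets passed limma's adjusted threshold and 28.8% passed as lower. Of the 7 members tested 5 passed, all lower in NAC, with a median difference of −0.38 beside 0.010 over all probe sets. The groups of 4 members did not overlap, against 41.4% of all probe sets.

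Tek had the largest difference of the 8. Its NAC arrays read 7.44, 7.27, 7.41, 7.43 and 7.56, all under the VTA values of 8.03 to 8.34, a difference of −0.79 (SE 0.10; 1.73-fold lower; limma adjusted p = 2.47e-06). Slc2a1 differed by −0.67 (SE 0.092; 1.59-fold lower; adjusted p = 3.69e-06) and Icam2 by −0.58 (SE 0.11; 1.50-fold lower; adjusted p = 9.36e-05), both without overlap. Abcb1a was lower by 1.26-fold on its brighter probe set (−0.33, SE 0.070; adjusted p = 4.29e-04) and by 1.55-fold on the other (−0.64, SE 0.078).

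Flt1 differed by −0.38 (SE 0.079; adjusted p = 3.76e-04) with groups that overlapped by a little, but its other probe sets gave −0.063, −0.27 and 0.088, none past the limma threshold. One Slc2a1 probe set likewise gave −0.14 (SE 0.087; adjusted p = 0.171). Cldn5 was at 9.21 ± 0.040 in NAC and 9.25 ± 0.095 in VTA, a difference of −0.044 (95% interval −0.22 to 0.13). Pdgfrb differed by −0.19 (95% interval −0.46 to 0.078) on one probe set and by 0.054 on the other.

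The wider vessel lists held members on both sides, in a comparison where 59% of all probe sets were called and 28.8% were called lower. Of the tested genes 8 of 21 for endothelial identity were called lower and 0 higher, 13 of 22 for barrier junctions and transporters lower and 1 higher, 10 of 21 growth factors and receptors lower and 3 higher, and 8 of 18 mural genes lower and 2 higher. Their medians were −0.15, −0.26, −0.22 and −0.28. Sox17 (−0.69), Slc16a1 (−0.96), Epas1 (−0.78) and the pericyte channel gene Abcc9 (−0.96) were among the lower ones, and Pdgfd, a ligand of PDGFRB, was lower by 2.26. Pdgfb, the endothelial ligand of that receptor, was higher in NAC (0.63, SE 0.11), as were the Notch ligand gene Dll4 (0.53, SE 0.075), the zinc transporter gene Slc39a10 (0.43, SE 0.091) and Ndufa4l2 (0.43, SE 0.072), each with a limma adjusted p under the threshold. Astrocyte markers were called lower for 11 of 14 and higher for 1, oligodendrocyte markers lower for 13 of 14 with a median of −0.81, and microglia markers higher for 10 of 13. Their part in the member values was not tested.

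**Figure D4:**
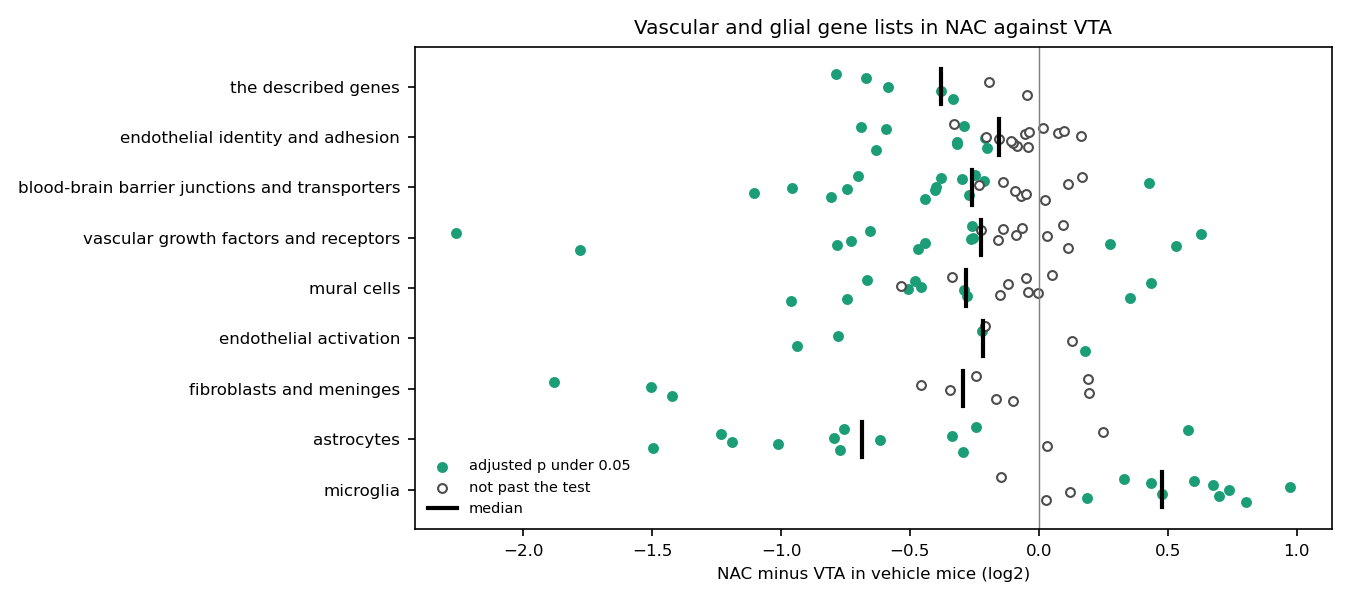
Difference between NAC and VTA in vehicle mice on the log2 scale (x axis) for each tested gene of the vascular and glial lists (rows), filled where limma's adjusted p passed and open where it did not, with the list median as a bar. The median of the 7 tested members is at −0.38, that of the astrocyte markers at −0.69 and that of the microglia markers at 0.48.

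PFC levels can be set beside the others only after all arrays were brought to one distribution by quantile normalization, which is given as a description. That step does not remove the RNA handling that the labels give differently for PFC, so region and handling cannot be told apart. After that step, and on the brightest probe set of each gene, VTA vehicle arrays had the highest mean for 7 of the 8 genes, and PFC for Pecam1. Tek stood at 8.41 ± 0.12 in VTA, 8.15 ± 0.20 in PFC and 7.57 ± 0.11 in NAC, where NAC lay apart from both and VTA and PFC overlapped. Slc2a1 stood at 10.98 ± 0.17, 10.59 ± 0.12 and 10.34 ± 0.14 in VTA, PFC and NAC, Icam2 at 6.95 ± 0.17, 6.61 ± 0.22 and 6.31 ± 0.078, and Abcb1a at 9.21 ± 0.14, 9.01 ± 0.12 and 8.90 ± 0.029. In these 3 genes neighbours in the order overlapped and the first and last regions did not. Flt1 was at 9.48 ± 0.23 in VTA, 9.10 ± 0.12 in NAC and 8.97 ± 0.094 in PFC, with the same pattern of overlap. Cldn5 (9.41, 9.38 and 9.33 in VTA, NAC and PFC), Pdgfrb (9.29, 9.12 and 8.78) and Pecam1 (6.34, 6.32 and 6.41) overlapped between all regions. Some dimmer probe sets gave another order. In VTA, NAC and PFC the other one of Abcb1a had means of 9.04, 8.38 and 8.19. That of Pdgfrb had 7.65, 7.66 and 7.51, and the dimmest of Flt1 had 6.95, 6.97 and 6.62.

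From array to array within their groups, the 8 genes varied together. Over the 36 arrays all 28 pairs had a positive Pearson correlation of their deviations from the group means, with a median of 0.50 and a range of 0.19 to 0.80. The points share arrays and tissue pieces, so this is a description. Slc2a1 and Icam2 were the closest pair (0.80), Flt1 was closest to Slc2a1 (0.69), and Tek was closest to Cldn5 (0.68), while Slc2a1 with Tek gave 0.22 and Flt1 with Pdgfrb 0.19. Probe sets of one gene ranged from 0.15 between a pair for Flt1 to 0.91 between a pair for Slc2a1.

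Among 12603 other genes the 10 closest to the mean deviation of the 8 were the endothelial gene Mmrn2 (0.87), Epas1 (0.84), Vwf (0.82), Ctsh (0.82), Serpinf1 (0.82), Crip1 (0.81), C730049O14Rik (0.81), the microglial complement gene C1qa (0.80), Pla2g4a (0.80) and Pycard (0.80). The summed level of the 8 went with that of the endothelial list (0.89), the microglia list (0.85), the mural list (0.83), the perivascular macrophage list (0.76), the barrier list (0.71), the astrocyte list (0.71), the fibroblast and meninges list (0.68) and the endothelial activation list (0.66), and less with that of the interferon-induced genes (0.52). Icam2 and Slc2a1 had 0.77 and 0.75 with the interferon-induced genes, Flt1 0.49 and Abcb1a 0.35, while Pecam1 had 0.23, Cldn5 0.13, Pdgfrb 0.11 and Tek 0.0026. With the microglia list Icam2 and Slc2a1 had 0.74 each, and with the endothelial list 0.68 and 0.73. These correlations are over the same 36 arrays and carry no test.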

How the data were processed

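The deposited log2 values of 36 arrays by 45101 probe sets were used as the authors gave them; per the submitters' processing notes they come from RMA (version not stated). Raw intensities and scan dates were not analysed here. The 8 genes and all lists were chosen with earlier results of these data known. Probe sets were named through the platform annotation, where 34945 had 1 symbol, 932 several and 9160 none (64 controls were left out of tests). In each comparison, probe sets with a mean at or above the 40th percentile over the fitted arrays were tested (27022), by limma 3.58.1 (lmFit, eBayes; R 4.3.3) with Benjamini and Hochberg adjustment and a threshold of 0.05. NAC and VTA were compared in a fit of the 18 vehicle arrays. The scripts were tested on simulated data.

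Named genes were the 8 members, up to 3 genes per direction and comparison with the smallest p from each vascular list, up to 2 of each other list, and the 10 closest by correlation, though not all are printed. Alternatives were other level filters, quantile normalization or median centring, trended and robust spread, array weights, 1 probe set per gene, 1 fit of all arrays, the replicate number as a block, each array left out, and exact permutation.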

Additional observations from a re-analysis of the deposited data

Results flagged for a closer look

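Each member was checked in each of the 6 groups, 48 checks in all, for an array whose gap to the nearest other was large for the range of its group, and chance alone gives about 1 in 20. Slc2a1 in vehicle VTA array 2 was 11.05, with the nearest array at 10.70. Pdgfrb in modafinil VTA array 2 was 8.54, with the nearest array at 8.90. Without the first array the Slc2a1 difference in VTA was 0.16, and without the second the Pdgfrb difference in VTA was −0.19.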

How the results depend on the processing

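Each comparison was repeated under the alternatives named above. The counts of members past the threshold stayed at 0 in NAC, in PFC and in the interactions under all that were run. Between NAC and VTA in vehicle the count was 5, and 4 with the filter at the 60th percentile or with 1 probe set per gene, where Icam2 was not among the probe sets tested. With array weights the count was 2 in VTA (Icam2 and Tek) and 2 across the regions (Icam2 and Slc2a1). With the filter at the 60th percentile it was 0 across the regions, since Icam2 was then not among the probe sets tested. With 1 probe set per gene it was 1 across the regions, but the member called was Slc2a1, and Icam2 was again not tested. Leaving out 1 array at a time gave counts of 0 to 1 in VTA (1 without modafinil VTA array 3) and of 1 to 2 across the regions (2 without vehicle VTA array 2, modafinil VTA array 3, or modafinil PFC arrays 3 or 6).

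Some uncalled values close to 0 changed sign, and the cause was not tested. Under quantile normalization Flt1 in VTA was 0.031, Pdgfrb in NAC 0.017 and Tek in PFC 0.018. Under median centring Flt1 in VTA was 0.0040 and its difference between PFC and NAC −0.020. With array weights Flt1 in VTA was 0.019, Tek in NAC −0.096, Pdgfrb in NAC 0.033, Pecam1 in PFC −0.012, Tek in PFC 0.032, the Icam2 difference between NAC and VTA 0.025, and between PFC and NAC that of Flt1 was −0.047 and that of Tek 0.14. Leaving out 1 array moved Flt1 (−0.068 to 0.064) and Abcb1a (−0.014 to 0.068) in VTA, Tek (−0.052 to 0.10) and Pdgfrb (−0.066 to 0.021) in NAC, and Pecam1 (−0.037 to 0.078) and Tek (−0.051 to 0.041) in PFC. Between NAC and VTA it moved the difference of Icam2 (−0.10 to 0.072) and Pecam1 (−0.046 to 0.0069), between PFC and VTA that of Icam2 (−0.14 to 0.046) and Abcb1a (−0.0047 to 0.097), and between PFC and NAC that of Cldn5 (−0.085 to 0.0059), Icam2 (−0.11 to 0.049), Flt1 (−0.048 to 0.037), Tek (−0.11 to 0.043) and Pecam1 (−0.056 to 0.025).

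Within regions, deviations of vehicle and modafinil arrays with the same replicate number correlated at −0.18 to 0.20 in VTA. The range was −0.52 to 0.16 in NAC and −0.22 to 0.26 in PFC. An array correlated best with its own number in 2 of 5, 0 of 5 and 2 of 8 cases. These pairs are of different mice, so they cannot show whether regions share a mouse. Between regions only vehicle NAC and VTA were compared. All their correlations were positive, at 0.016 to 0.25, with the own number best in 2 of 5 cases. Whether arrays of different regions share a mouse thus stays undecided. With the replicate number as a block the counts of members were 0 in VTA, NAC and PFC, 1 across the regions and 5 between NAC and VTA, and Il1r1 across the regions had an adjusted p of 0.0536. Depth is not defined for arrays, and dim probe sets, above all that of Pecam1, limit what could be tested.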
